A study of Rattus norvegicus with 42 samples.

Results

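The genes described here are 7 enzymes of triglyceride synthesis in rat liver: the lipins Lpin1, Lpin2 and Lpin3, the acyltransferases Gpam and Agpat2, and the diacylglycerol acyltransferases Dgat1 and Dgat2. They were found by gene name among the 26426 genes of the table of serine 2 phosphorylated RNA polymerase II (pSer2 Pol2) occupancy, where their 19 of 60999 rows describe 12 distinct intervals, and by Ensembl identifier among the 22929 genes of the RNA counts, where all 7 had a row. Of the 3981 regions bound by the glucocorticoid receptor (GR), 6 were centred within 50 kb of a start site of these genes, 5 at Lpin1 and 1 at Dgat2.

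Triglyceride is built by adding fatty acids to glycerol 3-phosphate step by step. Gpam is the mitochondrial acyltransferase that adds the first fatty acid, Agpat2 adds the next to give phosphatidate, the lipins remove the phosphate to give diacylglycerol, and Dgat1 and Dgat2 add the last fatty acid. Lpin1 is also known as a gene that fasting and glucocorticoids induce in liver, where its protein can act in the nucleus beside the transcription coactivator encoded by Ppargc1a.

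The libraries came from whole liver of male Sprague Dawley rats that had been adrenalectomised and fitted with a jugular cannula, had received dexamethasone after surgery, and had drunk corticosterone (CORT) until a washout, so that all groups share these treatments. CORT, as a complex with a cyclodextrin carrier (HBC), or vehicle (VEH) was then infused for 3 h, either in pulses of 20 min in every 60 min (PULS) or without interruption (CONS). GR and pSer2 Pol2 chromatin immunoprecipitation (ChIP) sampled the peak of the third pulse at 140 min (PEAK_140), the trough at 180 min (NADIR_180) and constant CORT at both times (CONS_140 and CONS_180), with 2 libraries in each group. The ChIP VEH group, pulsatile vehicle, held 1 library at 140 min and 1 at 180 min, and its 2 libraries served as the control in every comparison against VEH. RNA was taken at 180 min from PULS VEH, PULS CORT, CONS VEH and CONS CORT animals, with 3 libraries in each group. Each ChIP library pooled 6 rats, and whether an RNA library was 1 rat is not given in the sources used here, so p-values measure only the spread between these libraries. The age of the rats was not given either.

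Tag totals were 2051977 to 6715803 for GR and 4938473 to 9326927 for pSer2 Pol2, and RNA totals were 3956379 to 7777219 reads. The median GR value of the 3981 regions ranged from -0.86 in a VEH library to 4.04 in a PEAK_140 library on the log2 scale, and a CONS_140 library stood highest for pSer2 Pol2 (5.24 over the better covered regions, against 4.05 to 4.87 in the libraries of other groups). Among genes known to respond to glucocorticoids, Fkbp5 rose by 2.09 on the log2 scale in PULS and by 2.95 in CONS animals, Per1 by 2.74 and 3.12, and Tsc22d3 by 2.50 and 3.00. The summed RNA level of 6 hepatocyte markers ran from 8.759e+04 to 1.358e+05 CPM (read counts scaled to library size) and none of the 6 was called. For adipocytes, which also make triglyceride, 1 of 5 markers had enough reads to be tested, and Lep had 0 reads. The summed level was 28.4 to 36.9 CPM in PULS VEH and 34.8 to 48.7 in PULS CORT, which overlapped. It was 34.6 to 41.9 in CONS VEH and 53.2 to 53.9 in CONS CORT, which did not, and the marker was not called. Of 5 markers of stellate cells, 2 (Rgs5 and Dcn) were called higher in CONS CORT than in CONS VEH and none lower. In that comparison 4.29% of all tested genes were called higher. The 5 stellate markers had a median log2 change of -0.16 in CONS and 0.04 in PULS. Their summed level was lower with CORT, at 201 to 250.4 CPM in PULS VEH and 144 to 183 in PULS CORT, and at 194 to 206 in CONS VEH and 155 to 191 in CONS CORT, with no overlap in either pattern. Summed levels that did not overlap between PULS VEH and PULS CORT were also seen for cholangiocyte markers (8.88 to 11.2 and 11.6 to 15.8 CPM, 3 of 5 tested, Krt19 at 0 reads) and skeletal muscle markers (1.63 to 1.89 and 0.497 to 0.989 CPM, 2 of 5 tested), with no marker called. Kupffer cell and endothelial sums overlapped in both patterns, and Cd5l had 0 reads. The part of these markers in the RNA results was not tested. In bulk liver, fewer cells of a type and less RNA per cell cannot be told apart.

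At 180 min, Lpin1 RNA had risen in both patterns of infusion, to 8.30-fold of its control in PULS and 19.2-fold in CONS animals. Gpam RNA fell 2.17-fold in CONS CORT against CONS VEH, and Lpin2, Lpin3, Dgat1 and Dgat2 were not called in any RNA comparison. A gene was called at an edgeR quasi-likelihood adjusted p (Benjamini-Hochberg) under 0.05 and a change of at least 1.5-fold.

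Lpin1 RNA (ENSRNOG00000004377) stood at 88.9, 76.1 and 112 CPM in the 3 PULS VEH libraries and at 88.9, 99.8 and 70.8 CPM in the 3 CONS VEH libraries. It reached 819, 638 and 837 CPM in PULS CORT and 985, 2145 and 1837 CPM in CONS CORT. All 6 CORT libraries lay above all 6 VEH libraries, and the lowest CONS CORT library lay above the highest PULS CORT library. By edgeR's quasi-likelihood test, the change was 3.05 on the log2 scale in PULS (SE 0.27, adjusted p = 6.84e-05) and 4.26 in CONS (SE 0.29, adjusted p = 1.89e-06). It ranked 42 in PULS and 11 in CONS among the increases of 14092 tested genes. Of the 7 enzymes, 1 was called in PULS, against 3.90% of all tested genes, and 2 were called in CONS, against 8.84%. The median log2 change of the 7 was 0.25 in PULS and 0.01 in CONS, with -0.01 over all genes in both.

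The other lipins did not follow Lpin1. Lpin2 RNA ranged from 56.0 to 68.7 CPM in PULS VEH, 71.7 to 83.2 in PULS CORT, 68.8 to 102.6 in CONS VEH and 87.4 to 132.6 in CONS CORT, with log2 changes of 0.31 (edgeR adjusted p = 0.328) in PULS and 0.22 (0.429) in CONS. The PULS CORT libraries lay above the PULS VEH libraries, but so did the CONS VEH libraries. Lpin3 RNA lay between 15.6 and 22 CPM in all 12 libraries, with changes of 0.00 in PULS and -0.04 in CONS.

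Gpam, which carries out the committed first step, gave 242, 141 and 236 CPM in PULS VEH and 146, 223 and 205 CPM in PULS CORT. In CONS VEH it gave 226, 223 and 218 CPM, and in CONS CORT 94.8, 119 and 93.1 CPM. The CONS CORT libraries therefore lay below every library of the other 3 groups, while the PULS groups overlapped. The change was -1.12 in CONS (SE 0.19, edgeR adjusted p = 0.0012, 2.17-fold lower) and -0.12 in PULS (adjusted p = 0.808). Agpat2, the enzyme of the next step, gave 42.0, 39.7 and 48.1 CPM in CONS VEH and 30.7, 34.1 and 29.4 CPM in CONS CORT, and these groups did not overlap either. Its change of -0.46 (SE 0.14, edgeR adjusted p = 0.0319) was 1.38-fold, under the 1.5-fold limit of a call. In the PULS groups Agpat2 gave 33.5, 31.9 and 45.0 CPM with VEH and 47.9, 41.3 and 42.0 CPM with CORT, which overlapped.

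The last step showed no called change in RNA. Dgat1 lay between 20.4 and 28.2 CPM in all 12 libraries. Dgat2 ranged from 108 to 189 CPM in PULS VEH, 182 to 249 in PULS CORT, 148 to 190.1 in CONS VEH and 161 to 189.9 in CONS CORT. Its change was 0.42 (SE 0.18, edgeR adjusted p = 0.22) in PULS and 0.01 in CONS.

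**Figure D1:**
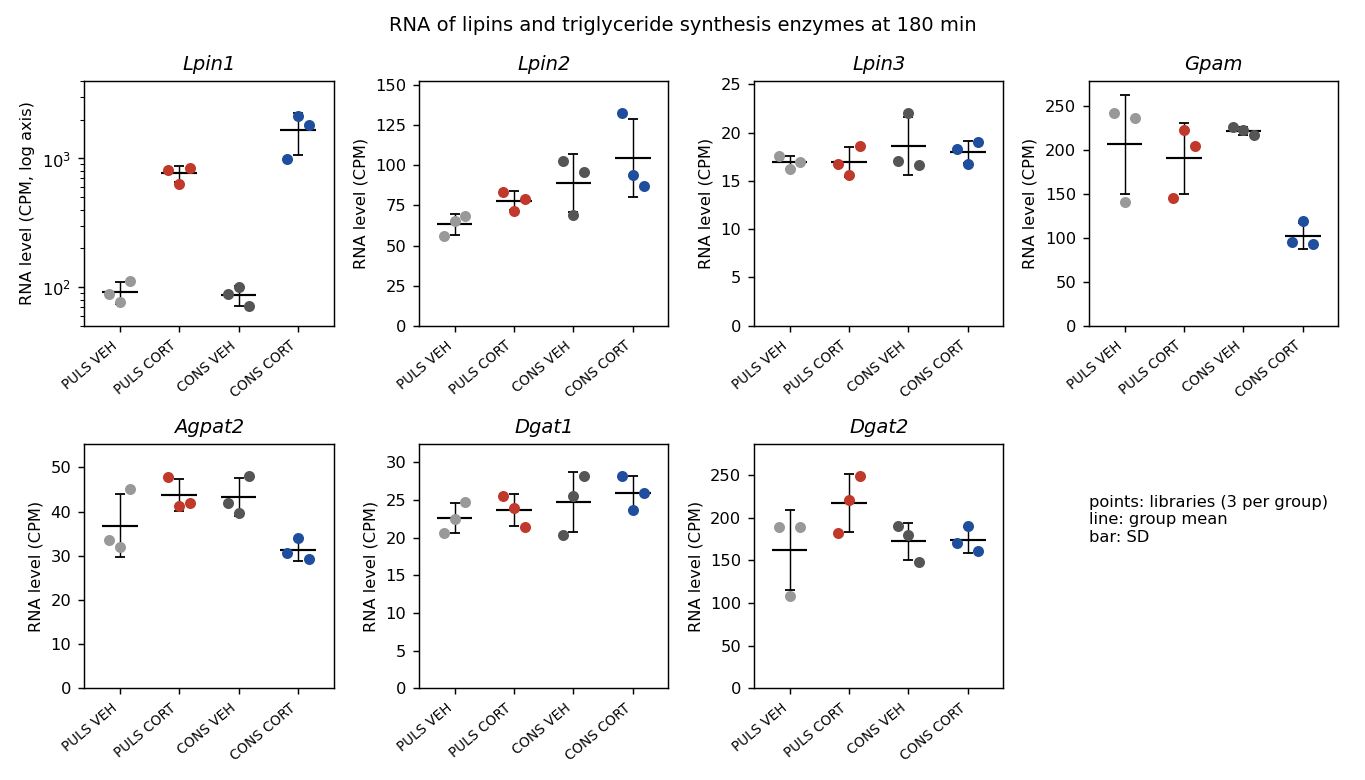
RNA level (CPM) of the 7 enzymes in each of 12 libraries at 180 min, with points for libraries, lines for group means and bars for the SD (3 libraries a group); the Lpin1 axis is logarithmic. Lpin1 separates CORT from VEH in both patterns, and Gpam is lowest in the CONS CORT libraries.

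Whether the response differed between the patterns was tested as the CONS change minus the PULS change. With edgeR, 0 of the 7 enzymes were called, against 0.114% of all genes, although 3 had an unadjusted p under 0.05, as did 1733 of all 14092 genes. The difference was 1.21 for Lpin1 (SE 0.36, adjusted p = 0.188), -1.0 for Gpam (SE 0.27, adjusted p = 0.126) and -0.72 for Agpat2 (SE 0.20, adjusted p = 0.124). DESeq2 called these 3, with adjusted p of 0.016, 0.0179 and 0.0465, so the call depends on the tool. The share of 0.114% is that of edgeR and is no measure for the DESeq2 count.

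CONS CORT was also set directly against PULS CORT. Gpam was lower in CONS CORT by -0.90 on the log2 scale (SE 0.19, edgeR adjusted p = 0.0416, 1.86-fold) and was the only 1 of 7 called, against 0.844% of all genes. This call was lost in 4 of the 6 fits that left out 1 library (without CONS CORT library 1 or 3, or PULS CORT library 2 or 3), where adjusted p ran up to 0.208. It was also lost with the replicate number as a block (-0.89, adjusted p = 0.088), and libraries of the same number in these groups deviated together in all 3 pairs (r of 0.21, 0.13 and 0.17). Lpin1 was higher in CONS CORT by 1.11 with an adjusted p of 0.0674 by edgeR and 0.000343 by DESeq2, and edgeR called it without CONS CORT library 1. The groups of Agpat2 did not overlap here either, with a change of -0.48 (edgeR adjusted p = 0.134).

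Between the VEH patterns, edgeR called 0 of 7 enzymes, against 0.00710% of all genes, and DESeq2 called none either. Only Lpin2 had an unadjusted p under 0.05, with 0.50 higher in CONS VEH (edgeR adjusted p = 0.381).

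Elongating polymerase over the same genes could be followed through the pulse, since pSer2 Pol2 was measured at 140 and 180 min. The values were read as log2 occupancy over the first 10 kb after an annotated start, with the input signal taken off, although the file headers call them tag counts, and the folds rest on that scale. Lpin1 occupancy rose 21.2-fold at the pulse peak, and 21.1-fold and 21.5-fold under constant CORT at 140 and 180 min, and in the trough it was back in the range of the VEH libraries. The furthest upstream start of Gpam had less occupancy at the pulse peak than with VEH or in the trough.

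Lpin1 had 2 measured starts on the minus strand of chromosome 6 (rn6). The inner interval, chr6:41832817-41842817, held 7.53 and 5.85 in the VEH libraries, 11.24 and 10.95 in PEAK_140, and 6.57 and 6.22 in NADIR_180. Constant CORT gave 11.33 and 10.86 at 140 min and 11.32 and 10.92 at 180 min. The 6 libraries of PEAK_140, CONS_140 and CONS_180 all lay above 10.8, and the VEH and NADIR_180 libraries overlapped. The upstream interval, chr6:41860046-41870046, stayed within 0.05 of its lowest value, 1.34, in 7 of 10 libraries.

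The changes at the inner start of Lpin1, by limma with Benjamini-Hochberg adjustment, were 4.40 in PEAK_140 against VEH (SE 0.47, adjusted p = 0.00156), 4.40 in CONS_140 (adjusted p = 0.00183) and 4.43 in CONS_180 (adjusted p = 0.00259). They ranked 5, 11 and 7 among the increases of 38315 tested rows. NADIR_180 against VEH gave -0.30. PEAK_140 exceeded NADIR_180 by 4.71 (adjusted p = 0.00301, 26.1-fold) and CONS_180 exceeded NADIR_180 by 4.73 (adjusted p = 0.00328), each the increase of rank 3. PEAK_140 and CONS_140 differed by 0.00 and CONS_140 and CONS_180 by -0.03. The 2 comparisons against NADIR_180 share its libraries. When each comparison was fitted on its own libraries alone, no change against VEH or NADIR_180 was called, with adjusted p of 0.509, 0.519 and 0.737 against VEH and 0.0869 and 0.187 against NADIR_180, and the log2 changes stayed the same. Leaving out 1 library also ended some calls: CONS_140 against VEH without CONS_140 library 1 (adjusted p = 0.114), CONS_180 against VEH without either CONS_180 library (up to 0.157), PEAK_140 against NADIR_180 without library 1 of either group (up to 0.102), and CONS_180 against NADIR_180 without NADIR_180 library 1 or either CONS_180 library (up to 0.203). Against VEH, PEAK_140 kept its call in all 4 such fits, and over all of these fits the change was at least 3.56.

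The promoters of the 2 enzymes whose RNA was called, Lpin1 (higher) and Gpam (lower), are shown from RefSeq on GRCr8, from 250 bases before to 50 after the start, 5′ to 3′. Whether these starts match either rn6 start of the gene was not determined. An entry was found for 5 of the 7 enzymes (Lpin1, Lpin2, Lpin3, Gpam and Agpat2). Capitals mark TGTTCT or its reverse complement AGAACA, a half-site of the glucocorticoid response element, and CCAAT or its reverse complement ATTGG, the CCAAT box. Both strands were searched and no marked letters overlap.
Lpin1: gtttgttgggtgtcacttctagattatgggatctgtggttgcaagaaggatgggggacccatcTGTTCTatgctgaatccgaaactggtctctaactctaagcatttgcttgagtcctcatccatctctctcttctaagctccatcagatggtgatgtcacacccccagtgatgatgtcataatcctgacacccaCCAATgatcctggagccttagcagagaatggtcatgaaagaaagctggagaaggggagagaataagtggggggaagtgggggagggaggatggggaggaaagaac
Gpam: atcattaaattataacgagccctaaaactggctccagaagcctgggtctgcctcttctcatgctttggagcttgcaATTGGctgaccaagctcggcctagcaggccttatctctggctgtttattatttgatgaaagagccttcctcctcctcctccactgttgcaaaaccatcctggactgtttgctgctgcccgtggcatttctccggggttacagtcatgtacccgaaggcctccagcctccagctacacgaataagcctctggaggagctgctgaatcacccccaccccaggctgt
TGTTCT was found at position -187 of Lpin1 and in none of the other 4 promoters, and 20.7% of 33469 RefSeq promoters hold it. A CCAAT box was found at -55 in Lpin1, -174 in Gpam and -168 in Lpin3, against 37.5% of all promoters. The letters TGACG or CGTCA, a half-site of the cAMP response element, were in none of the 5 promoters and in 21.2% of all. Such matches describe letters in a window, and whether GR bound there cannot be read from these data, since the GR regions are on rn6. On rn6, no GR region was centred within 10 kb of a measured start of the 7 enzymes.

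Gpam had 3 measured intervals on the minus strand of chromosome 1. The furthest upstream start, chr1:275896686-275906686, held 7.81 and 7.18 in VEH, 5.43 and 5.44 in PEAK_140, and 7.67 and 7.70 in NADIR_180. Constant CORT gave 7.78 and 6.63 at 140 min and 7.09 and 6.90 at 180 min. Both PEAK_140 libraries lay below the other 8. By limma, the start lost occupancy in PEAK_140 against VEH by -2.06 (SE 0.41, adjusted p = 0.0391, 4.17-fold) and against NADIR_180 by -2.26 (SE 0.41, adjusted p = 0.0398, 4.77-fold). Both calls were lost whenever 1 of the libraries compared was left out, with adjusted p of 0.102 to 0.392 against VEH and 0.18 to 0.396 against NADIR_180.

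The other Gpam intervals overlap each other and showed a smaller difference in PEAK_140 against VEH. The interval chr1:275872444-275882444 held 6.36 and 6.34 in PEAK_140 and 6.65 to 8.06 in the other libraries, and its change in PEAK_140 against VEH was -0.74 (limma adjusted p = 0.999). The interval chr1:275866329-275876329 changed by -0.71 in the same comparison. The RNA call in Gpam was made under constant CORT at 180 min, where none of its 3 intervals was called against VEH. All 3 were lower there, with limma changes of -0.497 (furthest upstream), -0.336 (chr1:275872444-275882444) and -0.996 (chr1:275866329-275876329), each at an adjusted p of 0.999. The last held 6.15 and 5.78 in CONS_180 and 7.38 and 6.54 in VEH. Its unadjusted p was 0.0372, and 1125 of all 38315 rows had one under 0.05. The furthest upstream start did not overlap with VEH either, while chr1:275872444-275882444 did.

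Agpat2 (chr3:4045806-4055806, minus strand) held the highest mean occupancy of the intervals after the inner start of Lpin1, from 8.48 in a PEAK_140 library to 9.95 in a CONS_140 library. Its PEAK_140 libraries differed from NADIR_180 by -0.66 and from CONS_140 by -0.94, neither called. Dgat2 (chr1:164133818-164143818, minus strand) ranged from 7.72 in a PEAK_140 library to 9.62 in a CONS_140 library, and CONS_140 exceeded VEH by 1.28 (SE 0.33, limma adjusted p = 0.162). Its other interval, chr1:164132206-164142206, overlaps the first and held 7.56 to 9.22.

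Dgat1 (chr7:117566737-117576737, minus strand) ranged from 3.95 to 6.71, with both extremes at 180 min, in VEH and CONS_180. The inner start of Lpin2 (chr9:119542328-119552328, plus strand) held 3.93 to 5.39, and its other start, chr9:119517101-119527101, stayed within 0.05 of its lowest value in 9 of 10 libraries. Lpin3 (chr3:156886454-156896454, plus strand) stayed within 0.05 of its lowest value in 8 of 10. None of these was called.

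**Figure D2:**
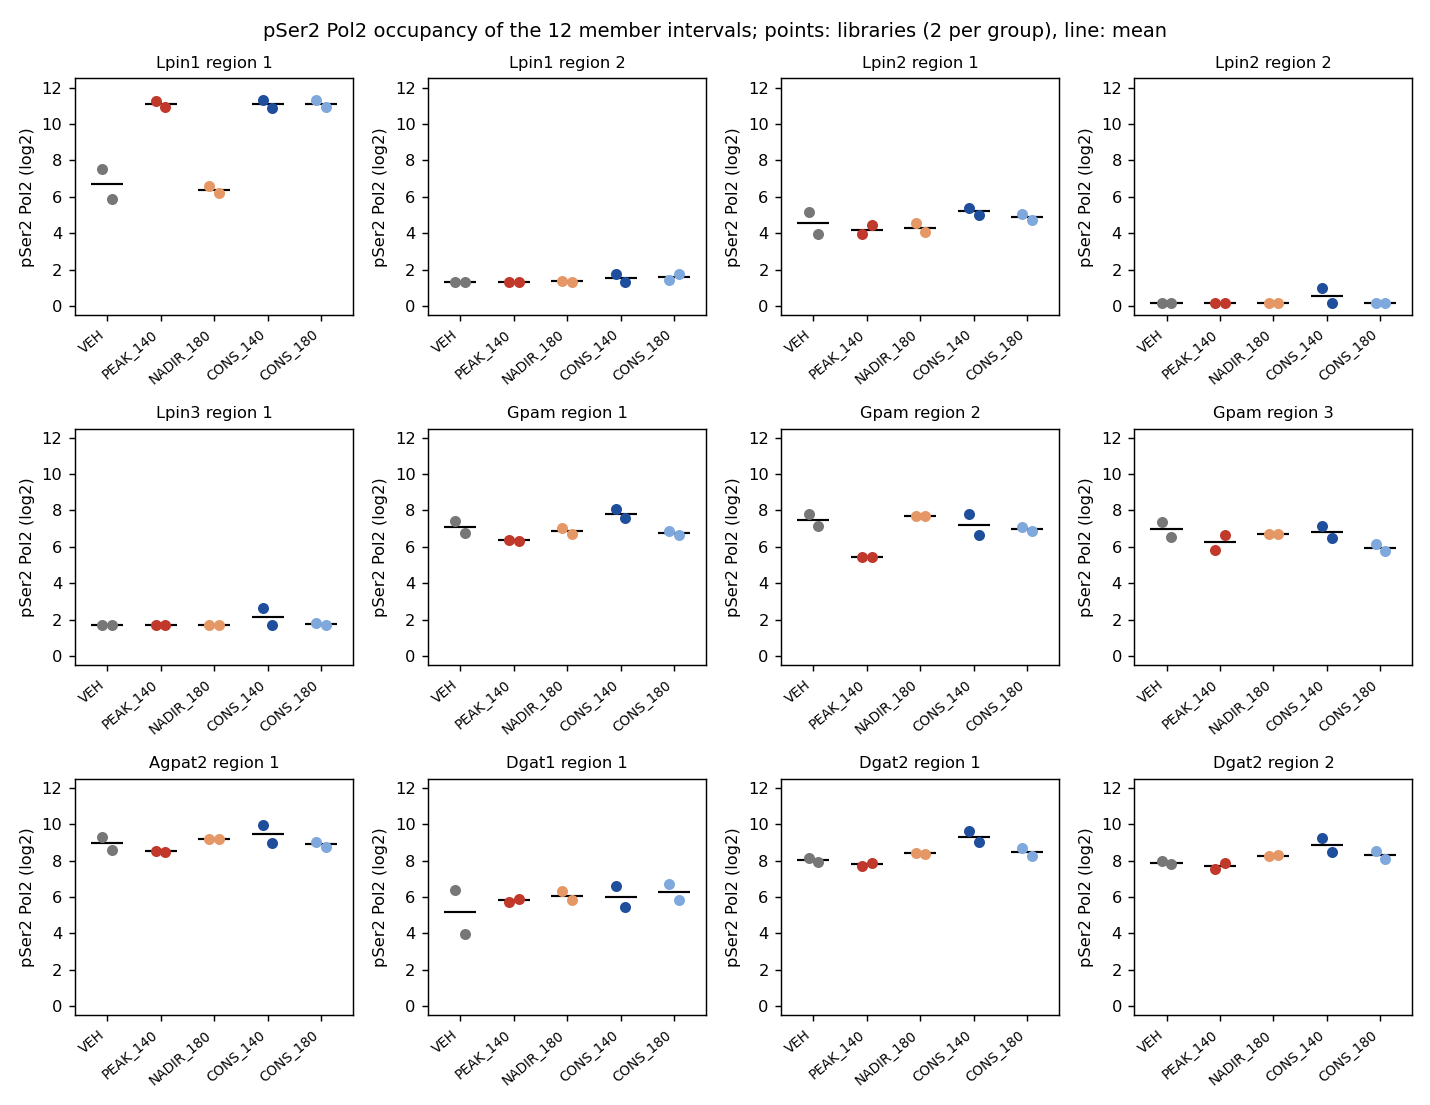
pSer2 Pol2 occupancy (log2, over 10 kb from a start) of the intervals of the 7 enzymes in the 10 ChIP libraries, with points for libraries and lines for group means (2 libraries a group). The inner Lpin1 start (region 1) sits above 10.8 in PEAK_140, CONS_140 and CONS_180, and the furthest upstream Gpam start (region 2) is lowest in PEAK_140.

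By gene, limma called 2 of the 7 enzymes (Lpin1 and Gpam) in PEAK_140 against VEH, against 1.02% of the 16500 tested genes with a called region, and the same 2 in PEAK_140 against NADIR_180, against 0.509%. Lpin1 was the 1 enzyme called in CONS_140 against VEH (0.824% of genes), in CONS_180 against VEH (0.236%) and in CONS_180 against NADIR_180 (0.176%). In NADIR_180 against VEH, 0 of 7 were called (0.00606% of genes), and no interval had an unadjusted p under 0.05. In CONS_140 against CONS_180, 0 were called (0% of genes), with 2 of the 12 intervals and 1134 of all 38315 rows at an unadjusted p under 0.05.

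At 140 min the patterns were compared directly. In PEAK_140 against CONS_140, limma called 0 of 7 enzymes, against 0.0303% of genes, with 6 of the 12 intervals, some of which overlap, and 3336 of all 38315 rows at an unadjusted p under 0.05. The differences were -1.77 at the furthest upstream Gpam start (adjusted p = 0.143), -1.47 at its middle start (0.151), -0.57 at its innermost start (0.485) and -1.51 at Dgat2 (0.132). The replicate number was also used as a block, a pairing read from these same values and not stated in the sample labels. With it, 2 enzymes were called, Gpam with a limma adjusted p of 0.0478 and Dgat2 with 0.0439. The share of 0.0303% belongs to the fit without a block, so it is no measure for this count. Here the CONS_140 library with the highest median of all pSer2 Pol2 libraries lay above the other CONS_140 library at all of these intervals. Without the lower CONS_140 library, 5 enzymes were called (Lpin2, Lpin3, Gpam, Agpat2 and Dgat2), but so were 8579 of all 38315 rows. In that fit CONS_140 is 1 library, assumed to vary like the other groups, so the count says nothing particular to these enzymes.

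The change from 140 to 180 min differed between the patterns at the inner Lpin1 start. Taken as the 140 min value minus the 180 min value, the fall with pulses was larger than that with constant CORT by 4.73 (SE 0.67, limma adjusted p = 0.0388), and Lpin1 was the 1 enzyme called, against 0.0667% of genes. This call was lost in 7 of the 8 fits that left out 1 library, all but that without CONS_140 library 2, with adjusted p up to 0.457, while the difference stayed between 4.49 and 4.97. On the same measure the furthest upstream Gpam start gave -2.47 (SE 0.58, limma adjusted p = 0.217), since its value was lower at 140 than at 180 min with pulses.

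**Figure D3:**
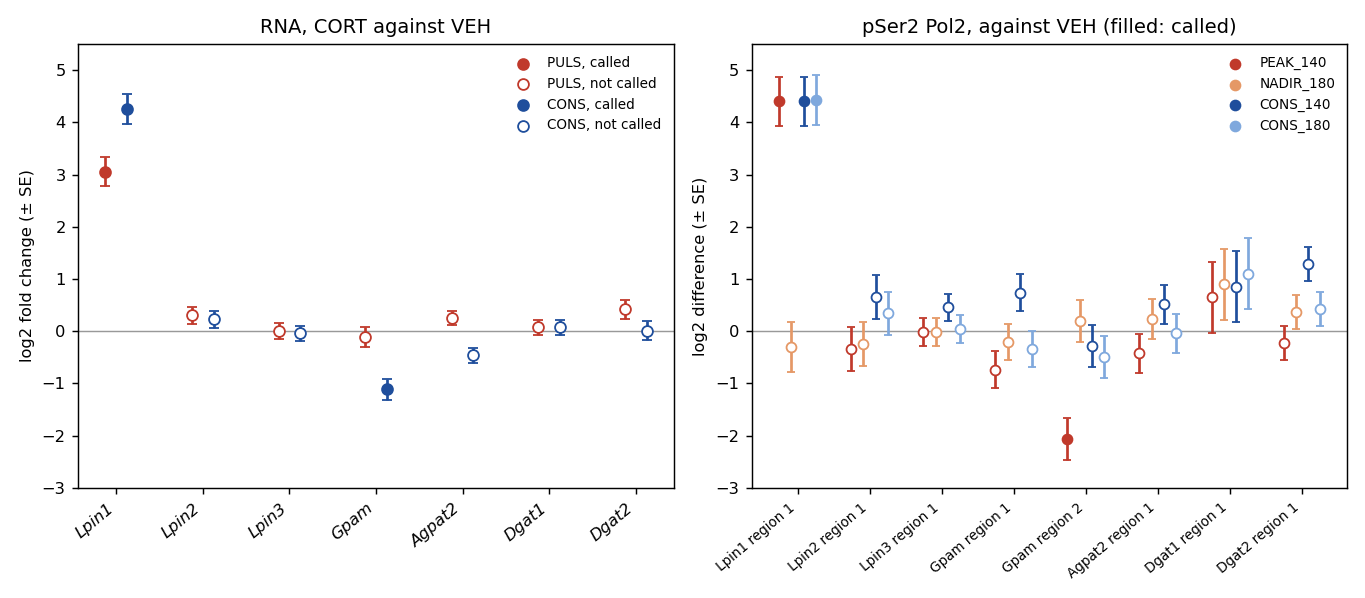
Log2 change with its SE of RNA (left, at 180 min) and of pSer2 Pol2 occupancy (right, the first listed interval of each enzyme and the furthest upstream Gpam start) against VEH, with filled points for called changes. Lpin1 is called in both RNA comparisons and in every CORT group but NADIR_180.

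GR is a nuclear receptor that binds DNA when CORT occupies it, and its binding was measured in the same design as pSer2 Pol2. Binding rose at Lpin1 sites 1 to 3 and at the region in Dgat2 at the pulse peak and under constant CORT. It did so at most of the GR regions (78.6% called higher in PEAK_140, 64.7% in CONS_140 and 67.9% in CONS_180). Relative to library medians only sites 1 and 2, both upstream of Lpin1, kept these calls, and these sites also stayed above VEH in the trough on the scale as deposited. A GR region within 50 kb was found for 18.1% of 21743 protein coding genes. The GR regions were merged from peaks called in the groups, and no site near these enzymes was a peak in VEH or NADIR_180. A rise over VEH or NADIR_180 is therefore partly set by how the regions were picked, and the GR p-values do not allow for that.

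Lpin1 site 1, chr6:41890042-41890667 (rn6), and Lpin1 site 2, chr6:41884400-41885025, are intergenic. Their centres lie at -20308 and -14666 bases from the upstream start and at -47538 and -41896 bases from the inner start. Both were in the peak lists of PEAK_140, CONS_140 and CONS_180. Lpin1 site 3, chr6:41853153-41853778, lies between the starts, in intron 1 of 21, and was in the CONS_180 list alone. Site 4, chr6:41822812-41823339, lies in intron 10 of 19 and site 5, chr6:41798658-41799185, at a transcript end, where the nearest gene in the table is AABR07063682.1. Sites 4 and 5 were in the CONS_140 list alone. The Dgat2 site, chr1:164130705-164131339, lies in intron 1 of 7, and its centre is 11184 bases after the nearer start.

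**Figure D4:**
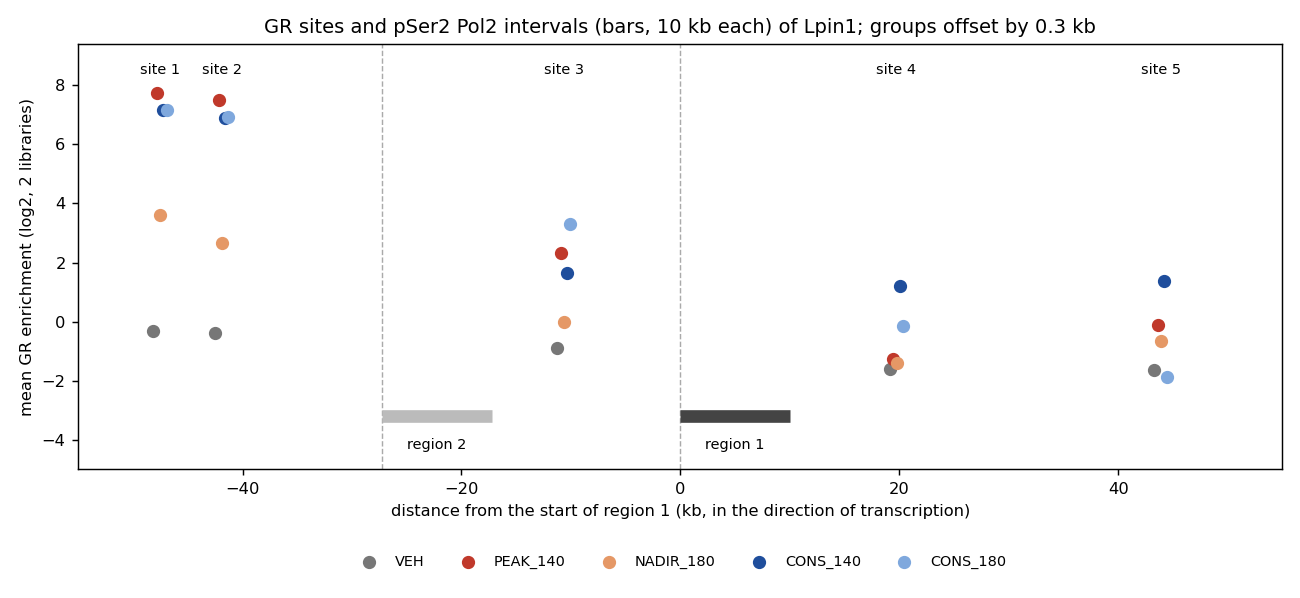
Map of the Lpin1 locus with distance from the inner start in kb along the direction of transcription, the 2 measured pSer2 Pol2 intervals and the 5 GR sites, and the mean log2 GR value of each group (2 libraries); region 1 is the inner start. Sites 1 and 2 lie upstream of both starts and carry the highest GR values.

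Site 1 held -0.20 and -0.41 in VEH, 7.65 and 7.82 in PEAK_140, and 4.01 and 3.19 in NADIR_180 (log2 GR signal with the input taken off). Constant CORT gave 7.08 and 7.26 at 140 min and 7.23 and 7.11 at 180 min. PEAK_140 was highest, both constant groups lay just below it, NADIR_180 lay between them and VEH, and no library of NADIR_180 or VEH overlapped another group. Site 2 had the same order, with -0.27 and -0.48 in VEH, 7.49 and 7.52 in PEAK_140, 3.50 and 1.82 in NADIR_180, 6.63 and 7.13 in CONS_140, and 6.78 and 7.04 in CONS_180. Among the 3981 regions, the mean of site 1 ranked 18 in PEAK_140, 51 in CONS_140 and 14 in CONS_180, and 1810 in VEH. Site 2 ranked 31, 78, 35 and 1850.

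By limma, site 1 rose by 8.04 in PEAK_140 against VEH (SE 0.38, adjusted p = 5.89e-06), and site 2 by 7.88 (SE 0.55, adjusted p = 1.43e-05). With constant CORT they rose by 7.47 and 7.26 at 140 min and by 7.48 and 7.29 at 180 min. In NADIR_180 they remained above VEH by 3.91 (adjusted p = 0.000958) and 3.04 (adjusted p = 0.0104), and these were the 2 sites of 6 called, against 7.79% of all regions. Fitted on the NADIR_180 and VEH libraries alone, these changes were not called (adjusted p = 0.166 and 0.316).

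Site 3 held -0.82 and -0.94 in VEH, 1.91 and 2.76 in PEAK_140, 0.62 and -0.61 in NADIR_180, 1.18 and 2.10 in CONS_140, and 3.69 and 2.90 in CONS_180. It rose by 3.21 in PEAK_140 (limma adjusted p = 0.00431), 2.52 in CONS_140 (0.0167) and 4.17 in CONS_180 (0.00158) against VEH. The Dgat2 site held -0.63 and -0.82 in VEH, 4.54 and 4.67 in PEAK_140, 3.09 and -0.40 in NADIR_180, 5.10 and 5.44 in CONS_140, and 4.19 and 4.30 in CONS_180. It rose by 5.33 in PEAK_140 (limma adjusted p = 0.00117), 5.99 in CONS_140 (0.000837) and 4.97 in CONS_180 (0.00228) against VEH, and its NADIR_180 libraries lay far apart. The call of site 3 in CONS_140 was lost without either VEH library (adjusted p up to 0.0814).

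Sites 4 and 5 stood out in 1 library. Site 4 held 4.06 in CONS_140 library 1, 1.56 in CONS_180 library 2 and -1.86 to -1.17 elsewhere. Site 5 held 4.43 in CONS_140 library 1 and -1.90 to 0.96 elsewhere. That library had the most GR tags of all, 6715803. Neither site was called, and without the other CONS_140 library both were called in CONS_140 against VEH, in a fit where CONS_140 is that 1 library and the other groups supply the spread.

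**Figure D5:**
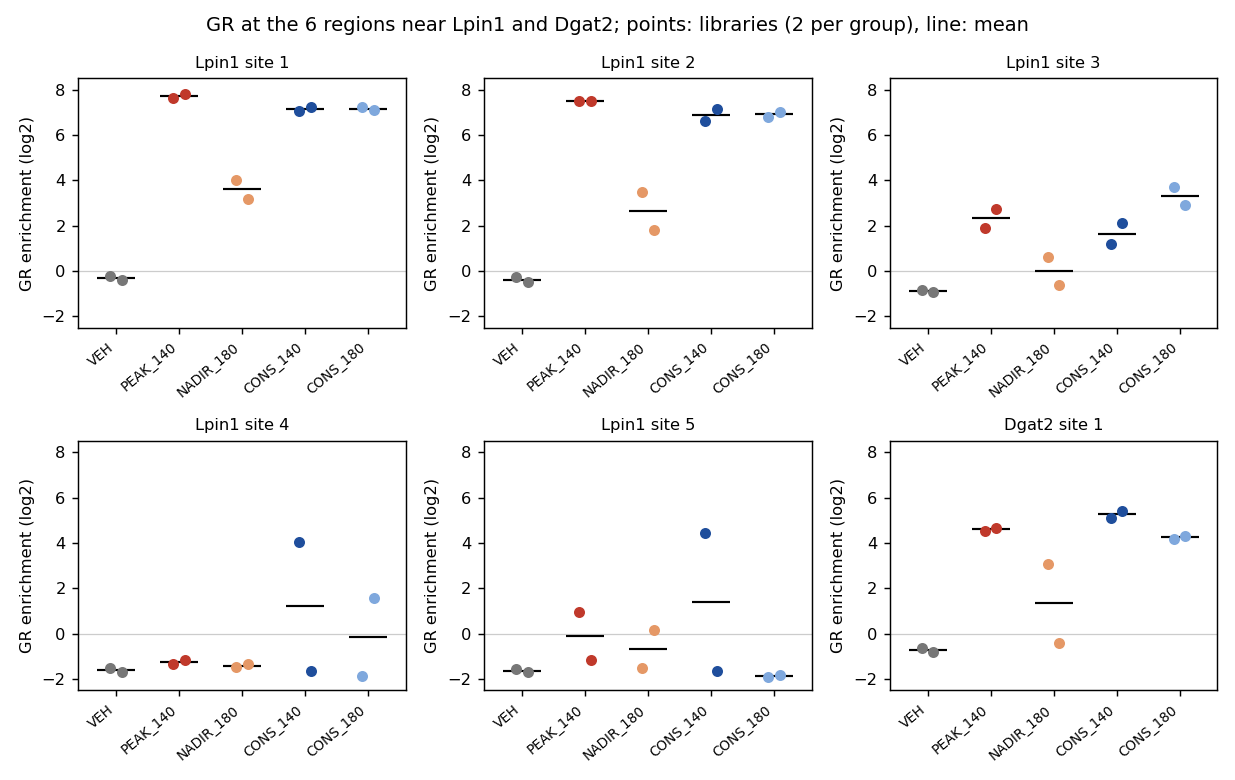
GR signal (log2, input taken off) at the 6 sites in the 10 GR libraries, with points for libraries and lines for group means (2 libraries a group). Lpin1 sites 1 and 2 sit between 6.63 and 7.82 in PEAK_140 and the constant groups, with NADIR_180 between them and VEH, and sites 4 and 5 are high in a CONS_140 library.

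Most of the GR regions, which were picked as peaks in these same groups, changed in the comparisons of CORT with VEH. The sites called were 4 of 6 in PEAK_140 against VEH (80.5% of all regions), 4 in CONS_140 (65.1%) and 4 in CONS_180 (68.2%). Against NADIR_180, 4 were called in PEAK_140 (69.3% of regions) and 4 in CONS_180 (49.6%), and the calls of site 3 and the Dgat2 site in these were lost in some fits that left out a PEAK_140 library, a CONS_180 library or NADIR_180 library 2 (adjusted p up to 0.137). These shares are near those of all regions, so the count of sites called is no result about these enzymes. The sizes at sites 1 and 2 were well above the medians of all regions, which were 4.17, 3.38 and 3.46 against VEH. In PEAK_140 against CONS_140, limma called 0 of the 6 sites (0.0502% of regions), and in CONS_140 against CONS_180 0 (0% of regions), with no site at an unadjusted p under 0.05 in either.

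The GR values of all regions differ between the groups, so the median of a library moves with the treatment. With the median of every library set to 0, sites 1 and 2 were still called against VEH in PEAK_140 (3.42 and 3.27, limma adjusted p = 0.00353 and 0.00387), CONS_140 (3.36 and 3.15) and CONS_180 (3.42 and 3.23). Site 3 then turned to -1.40 in PEAK_140 and -1.59 in CONS_140 against VEH and to -1.10 in PEAK_140 against NADIR_180, and the Dgat2 site to -0.18 in PEAK_140 against NADIR_180. No site was called under this centring in any comparison against or with NADIR_180. Sites 1 and 2 then stood above VEH in NADIR_180 by 2.73 and 1.86 (limma adjusted p = 0.0856 and 0.193). Against NADIR_180 they gave 0.69 and 1.41 in PEAK_140, and 0.69 and 1.37 in CONS_180.

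The fall of GR signal from 140 to 180 min differed by pattern at 3 of the 6 sites, against 44.0% of all regions. That share counts calls in either direction. The fall was called larger with pulses than with constant CORT at these 3 sites and at 43.6% of all regions. By limma the difference was 4.14 at site 1 (SE 0.54, adjusted p = 0.00377), 4.88 at site 2 (SE 0.78, adjusted p = 0.0052) and 3.99 at site 3 (SE 1.07, adjusted p = 0.0206), with a median of 3.11 over all regions. At the Dgat2 site it was 2.24 (adjusted p = 0.194), and without NADIR_180 library 1, where this site stood higher, it was called. With library medians set to 0 these differences were 0.75, 1.49 and 0.60 at sites 1 to 3 and turned to -1.15 at the Dgat2 site, none called. The call at site 3 was lost without PEAK_140 library 2, NADIR_180 library 2 or CONS_180 library 1, with adjusted p up to 0.0653.

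Other genes of the pathway, from lists chosen with earlier results of these data known, were read in the RNA by the same edgeR test. Of 13 further acyltransferases and phosphatases, 11 were tested, 1 rose in PULS and 3 rose in CONS, with median log2 changes of -0.06 and 0.27 against -0.01 over all genes in both. Of all tested genes, 1.71% were called higher and 2.19% lower in PULS, and 4.29% higher and 4.56% lower in CONS, and these are the shares beside which the counts of every list stand. Gpat3, an acyltransferase of the endoplasmic reticulum that carries out the same step as Gpam, rose by 2.81 in PULS (SE 0.31, edgeR adjusted p = 2.66e-05) and 2.93 in CONS (SE 0.27, adjusted p = 6.75e-07), from group means of 1.88 and 2.52 CPM with VEH to 13.7 and 20.1 CPM with CORT. Gpat4, which shares that step, rose by 0.87 in CONS and the phosphatase Plpp3 by 0.82. Both acyltransferases thus rose in the CONS comparison in which Gpam fell.

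Of the 7 tested genes of glycerol 3-phosphate metabolism (8 listed), 1 rose and 1 fell in PULS, and 2 rose and 3 fell in CONS. The median in CONS was -0.79 against -0.01 over all genes. With so few genes a list, each gene is a large share, so the counts are given as a description. Gk, the kinase that makes glycerol 3-phosphate from glycerol, fell by 1.18 in PULS (edgeR adjusted p = 7.13e-05) and fell by 1.52 in CONS (adjusted p = 1.12e-06). Pck1, an enzyme of gluconeogenesis that also feeds glyceroneogenesis, rose by 1.00 in PULS and 0.91 in CONS. Gpd1, which makes glycerol 3-phosphate from dihydroxyacetone phosphate, fell by 0.92 in CONS. There Gpd2, a mitochondrial enzyme that uses glycerol 3-phosphate, fell by 0.79, and Gpd1l rose by 1.22. The Gpd1 change differed between the patterns by -0.94 (edgeR adjusted p = 0.0447).

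Among genes of fatty acid uptake and activation, 13 of 14 were tested. Acsl4 rose by 0.76 in PULS and by 1.25 in CONS, and Acsl1 and Acsl3, which make acyl-CoA as well, changed by -0.84 and -1.03 in CONS (edgeR adjusted p = 0.000401 and 0.000215). The median was 0.08 in PULS and -0.31 in CONS. Of 13 tested genes that take diacylglycerol or phosphatidate into phospholipids, Pcyt1a, which controls phosphatidylcholine synthesis, was the 1 called, higher by 0.67 in PULS and 1.35 in CONS, with medians of -0.04 and -0.02.

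Of 9 genes that control or act with lipins, 1 rose in PULS, and in CONS 3 rose and 2 fell, with medians of 0.14 and 0.06, where 3.90% and 8.84% of all tested genes were called in either direction. Ppargc1a, the coactivator named above, had group means of 22.7 and 44.3 CPM in PULS VEH and PULS CORT and of 21.1 and 162 CPM in CONS VEH and CONS CORT. It rose by 0.98 in PULS (edgeR adjusted p = 0.0169) and 2.93 in CONS (adjusted p = 5.68e-07), and the difference of 1.95 was called (adjusted p = 0.0318). Ppargc1b rose by 1.23 and the fatty acid sensor gene Ppara by 1.5 in CONS, where Srebf1 and Srebf2, genes of lipogenic and sterol-sensing transcription factors, changed by -1.54 and -0.59.

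In pSer2 Pol2, 11 acyltransferases and phosphatases, 12 genes of fatty acid uptake, 8 of glycerol 3-phosphate metabolism, 12 of phospholipid synthesis and 9 of lipin control were tested. Of these, limma called 2 genes in PEAK_140 against VEH, 2 in CONS_140 against VEH, 1 in CONS_180 against VEH and 2 in PEAK_140 against NADIR_180, where 1.02%, 0.824%, 0.236% and 0.509% of all genes were called. Gk was lower in PEAK_140, CONS_140 and CONS_180 against VEH and in PEAK_140 against NADIR_180. Acsl1 was lower in PEAK_140 against VEH and against NADIR_180, and Slc27a5, a transporter and bile acid ligase, was higher in CONS_140 against VEH.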

How the data were processed

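The 7 enzymes and all gene lists were chosen with earlier results of these data known. ChIP reads were aligned by the authors to rn6, binding regions were called with HOMER 4.9.1 and merged, and the deposited values per region were read as log2, of the regularised-log kind with input subtracted, because they are not whole and GR values fall below 0. The file headers call both kinds of value tag counts, so the scale is inferred, and every ChIP fold change depends on it. GR scaling is described in 2 ways in the sources (by tags in binding regions, or by total tags), and pSer2 Pol2 regions end 10 kb after a start. RNA was deposited by the authors as raw read counts over exons of Ensembl genes (STAR, featureCounts 1.6.2), and whether strand was used is not given in the sources used here. Start, end and distance columns of the deposited ChIP tables gave the positions. The authors' own fold changes and p-values were not used.

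RNA counts were tested with edgeR 4.0.16 (quasi-likelihood, TMM, all 4 groups in 1 fit, genes with more than 10 reads in total) and ChIP values with limma 3.58.1 (all 5 groups in 1 fit, mean trend) in R 4.3.3. CPM used TMM library sizes. P-values were adjusted over all features by the Benjamini-Hochberg method, and a call needed an adjusted p under 0.05 and a 1.5-fold change. Of the 60999 pSer2 Pol2 rows, the 38315 with any value other than 0 were tested, and gene and transcript rows of 1 interval were both kept. Alternatives were DESeq2 1.42.0, other scalings, filters, fits on the compared groups, left-out libraries and the replicate number as a block. For pSer2 Pol2, libraries of the same number deviated together between all 6 pairs of groups (r of 0.16 to 0.48, with 1 distinct value a pair of groups, since 2 libraries mirror each other), so the numbers were taken to pair them. The same held between CONS CORT and PULS CORT in RNA (3 of 3 pairs over 0.1). This pairing comes from the data, and the ChIP VEH libraries carry no number. All 7 enzymes were described in every comparison whatever the result, a gene counted as called in pSer2 Pol2 if any of its intervals was, and from each gene list up to 6 genes called in PULS or CONS were named, by size of the CONS change. Tests were checked on simulated data. Some genes with a like pattern are not reported here.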

Additional observations from a re-analysis of the deposited data

Results flagged for a closer look

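The change between 140 and 180 min differed between pulsatile and constant CORT, by the interaction test of limma, in 4 measurements at Lpin1. At its inner start, pSer2 Pol2 occupancy gave a difference of 4.73 on the log2 scale (adjusted p = 0.0388): it fell from 11.10 to 6.39 with pulses and stayed at 11.09 and 11.12 with constant CORT. That call was lost in 7 of the 8 fits that left out 1 library (adjusted p up to 0.457) and without a mean trend. GR signal gave 4.14 at site 1, 4.88 at site 2 and 3.99 at site 3, where 44.0% of all 3981 regions were called with a median of 3.11, so the share of sites called is near that of all regions. The groups hold 2 libraries each, and once every library was centred on its median the GR differences were 0.75, 1.49 and 0.60 and were not called.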

How the results depend on the processing

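Of 396 alternative values of the called changes, 313 kept direction and call, 71 kept direction and lost the call, 8 moved and 4 reversed. RNA calls of Lpin1 in both patterns and of Gpam in CONS held in every alternative. DESeq2 called 3 enzymes for the pattern interaction and 2 in CONS CORT against PULS CORT. In pSer2 Pol2, centring on library medians gave 2 enzymes in CONS_140 against VEH (Lpin1 and Dgat2). It also gave 2 in PEAK_140 against CONS_140 (Gpam and Dgat2) and 2 for time by pattern (Lpin1 and Gpam). Testing only the better covered regions gave 2 (Lpin1 and Dgat2) and 1 (Dgat2) in the first and next of these. The shares of all genes called under these alternatives are not given here, so the counts are a description only. Without a mean trend, 1 enzyme was called in PEAK_140 against VEH, 1 against NADIR_180 and 0 for time by pattern. Fits on the compared libraries alone called 0 in all comparisons against VEH or NADIR_180. For GR, centring left 2 sites in PEAK_140, CONS_140 and CONS_180 against VEH and 0 in NADIR_180 against VEH, in both comparisons with NADIR_180 and for time by pattern, with reversed values of -1.40, -1.59 and -1.10 at Lpin1 site 3 and -0.18 at the Dgat2 site. NADIR_180 against VEH fitted alone called 0 sites, and 0 GR regions lay within 10 kb.

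With the replicate block, the count changed in 2 comparisons: PEAK_140 against CONS_140 for pSer2 Pol2 (2 enzymes) and CONS CORT against PULS CORT for RNA (0, Gpam -0.89, adjusted p = 0.088). Same-number r was -0.04 to 0.10 for GR (6 of 8 libraries closest to their own number) and -0.17 to 0.21 over all RNA groups (6 of 12), over 0.1 in every pair only between CONS CORT and PULS CORT.

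Over fits that left out 1 library, the count of enzymes called ranged in RNA from 1 to 1 (PULS), 2 to 2 (CONS) and 0 to 1 (CONS CORT against PULS CORT), and in pSer2 Pol2 from 1 to 1 (PEAK_140 against VEH), 0 to 4 (CONS_140 against VEH), 0 to 1 (CONS_180 against VEH and both comparisons with NADIR_180), 0 to 5 (PEAK_140 against CONS_140), 0 to 4 (CONS_140 against CONS_180) and 0 to 6 (time by pattern). The upper ends of 4, 5, 4 and 6 came without CONS_140 library 2. GR sites called ranged from 0 to 1 in CONS_140 against CONS_180, 2 to 4 in the comparisons with NADIR_180 and for time by pattern, and 3 to 6 in CONS_140 against VEH. With 2 libraries a group, 1 library can decide a ChIP call.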

Other observations

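Among the RNA levels most like those of Lpin1 over the 12 libraries, by Pearson correlation of log2 CPM, were those of AABR07027072.1 (r = 0.99), Ell2 (0.984), AABR07015559.1 (0.981) and Edem1 (0.981). For Gpam they included Cyp2b3 (0.971), a cytochrome P450, and Akr1c13 (0.954). The pSer2 Pol2 values most like the inner start of Lpin1 over the 10 libraries belonged to AABR07044148.1 (r = 0.992), Mat1a (0.99), which makes the methyl donor S-adenosylmethionine, Nudt4 (0.985), Nrbf2 (0.984) and Ugt2a3 (0.983). Their mean in PEAK_140 exceeded that in VEH by 4.18, 1.43, 1.95, 1.25 and 3.06 on the log2 scale, so genes with a like pattern differed in the size of the change. All libraries share the treatment groups, and the genes were picked for these correlations, which are given as a description.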
